A study of Mus musculus with 202 samples.

Results

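The genes described here encode the nuclear-encoded subunits of respiratory complexes II, III, IV and V. They were taken from the count table by their symbols (Sdha to Sdhd, Uqcr genes and Cyc1, Cox4 to Cox8 genes, and Atp5 genes, pseudogene symbols left out), which gave 48 of 23995 gene symbols. Complex II had 4 members, complex III 9, complex IV 18 and complex V 17. Each library was 1 mouse oocyte at metaphase II (MII), the stage at which the egg waits for fertilisation, and 157 of 202 libraries passed a minimum of 100000 gene counts and 4000 genes. The oocytes came from C57Bl/6J mice descending from F0 females on a control diet (CD) or a high fat and high sugar diet (HFHS), given vehicle (Veh) or dihydrotestosterone (DHT), an androgen. F1 held 10 CD+Veh, 8 CD+DHT, 14 HFHS+Veh and 13 HFHS+DHT oocytes. F2 held 16 CD+Veh, 25 CD+DHT, 20 HFHS+Veh and 5 HFHS+DHT oocytes, and F3 held 20 CD+Veh, 13 CD+DHT and 13 HFHS+Veh oocytes. The labels give no age, dose or time.

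The respiratory chain lies in the inner mitochondrial membrane. Complex II (succinate dehydrogenase) passes electrons from succinate to ubiquinone, complex III passes them on to cytochrome c, and complex IV (cytochrome c oxidase) passes them to oxygen. Complex V, the ATP synthase, uses the proton gradient so formed to make ATP, and the MII oocyte relies on this route more than on glycolysis. Several subunits of complex IV exist as forms made in different tissues.

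Groups were taken from the titles. The characteristics of 36 samples name another hormone or another generation than their title: 15 titled F1 HFHS+Veh, 5 titled F2 HFHS+DHT, 8 titled F2 HFHS+Veh and 8 titled F3 HFHS+Veh. Animals were named in the titles of 3 F2 groups (CD+Veh 4, CD+DHT 5 and HFHS+Veh 4 animals) and of F3 HFHS+Veh (3 animals), and were read from the number before the point. All 8 oocytes of F3 HFHS+Veh animal 25 fell below the minimum, which left 2 animals in that group. In all other groups the oocytes count as 1 sample, and no test was made. F2 HFHS+DHT, with 5 oocytes and no named animal, entered no comparison. Kept libraries held 133654 to 16359078 gene counts (median 2122240). Markers of the oocyte were high: 14 of 15 listed genes, such as Gdf9 and Zp3, had a median of at least 5 CPM (counts scaled to a library total of 1000000), and Oog1 was at 0. Of 38 cumulus and granulosa markers, 7 had such a median (among them Serpine2, Spp1 and Cyp19a1) and 26 had a median of 0, including Fshr, Foxl2 and Amh. Serpine2 had a count in 157 oocytes and a median of 836 CPM, where the sum of the 38 had a median of 1330 CPM. Sums of these markers are therefore weighted toward this gene. The library titled F3 CD+Veh oocyte 21 stood apart. Its oocyte markers summed to 255 CPM, against 6620 CPM in the next lowest library, and its cumulus and granulosa markers summed to 76051 CPM, the highest of all, and 14.33% of its counts were spike-ins. Some results that rest on it are given with and without it.

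Compared per length, complex III and complex IV each had subunits near 200 RPKM (reads scaled by transcript length and library size) beside subunits that were barely counted. In complex III the core protein Uqcrc2 had a median of 219 RPKM over the 157 oocytes, followed by the hinge protein Uqcrh at 38.2 and Uqcr10 at 29.3. The partner core protein Uqcrc1 and cytochrome c1 (Cyc1), which takes part in the electron transfer itself, both had a median of 0 RPKM and a count in 66 and 52 oocytes. The Rieske iron-sulfur protein Uqcrfs1 had 3.12 RPKM, the lowest median above 0 in this complex. The transcripts of subunits that are joined in one complex therefore differed widely in level.

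In complex II the flavoprotein Sdha led with 62.5 RPKM, and the membrane anchor Sdhc had 42.8. The other anchor Sdhd had 6.28 RPKM and the iron-sulfur subunit Sdhb 3.45, the lowest of the complex. In complex V the catalytic beta subunit Atp5b led with 144 RPKM, above the gamma subunit Atp5c1 with 43.2 and the epsilon subunit Atp5e with 30.1. The alpha subunit Atp5a1, which pairs with beta in the catalytic head, had 20.8 RPKM. Atp5g1 had 0.426 RPKM, the lowest median above 0 in complex V, but its reads may be shared with similar genes. Atp5d, Atp5g2 and Atp5s had a median of 0. Atp5s and Atp5sl carry the names Dmac2l and Dmac2 in RefSeq, and are not among the structural subunits of the ATP synthase.

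In complex IV the 3 highest medians over all oocytes belonged to Cox8a (211 RPKM), Cox6b2 (210) and Cox5a (189.5). Their order differed by group: Cox6b2 led in F2 CD+Veh with 340 RPKM, before Cox8a with 318, and Cox5a led in F3 CD+Veh with 42.3 RPKM, before Cox8a with 20.5. Cox6a2 had 1.004 RPKM, the lowest median above 0. Of all 48 members, 19 had a count in at least 90% of oocytes and 11 in fewer than 50%. The orders given here are over all oocytes, and the plot of levels per length shows where single groups depart from them. In complex V, Atp5e (61.7 RPKM) stood above Atp5c1 (44.5 RPKM) in F2 CD+Veh, and Atp5a1 (18.1 RPKM) stood above Atp5e in F3 CD+Veh.

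**Figure D1:**
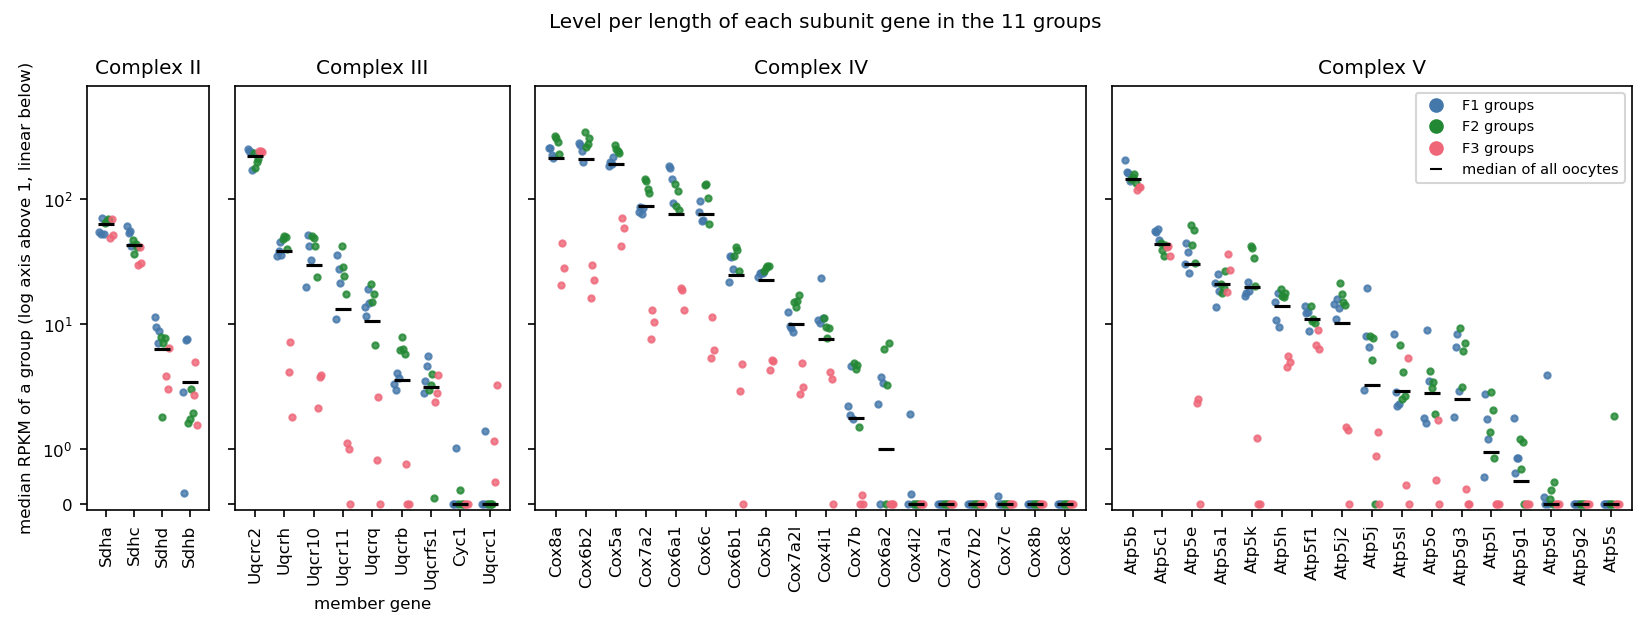
Median RPKM of each member gene (x axis, by complex, ordered by the median of all 157 oocytes) in each of the 11 groups, on an axis that is logarithmic above 1 and linear below. Dots are groups coloured by generation and black dashes the median of all oocytes, and the F3 dots of most complex IV genes lie below all F1 and F2 dots.

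Tissue forms of complex IV were compared within each oocyte. Cox6b2, known as the testis form of the intermembrane subunit 6B, exceeded the general form Cox6b1 in 153 of 157 oocytes, with median RPKM of 210 and 24.7. This held in 45 of 45 F1, 65 of 66 F2 and 43 of 46 F3 oocytes. For the other subunits the general form led. Cox6a1 (75.9 RPKM) exceeded the heart and muscle form Cox6a2 (1.004 RPKM) in 157 of 157 oocytes. Cox7a2 (88.2 RPKM) exceeded the muscle form Cox7a1, counted in 19 oocytes, in 156, and both were at 0 in 1. Cox8a exceeded the muscle form Cox8b and the testis form Cox8c in 157 of 157. Cox4i1 (7.61 RPKM) exceeded Cox4i2, the form best known from lung, in 120 oocytes and was below it in 8. Cox7b exceeded Cox7b2 in 102 oocytes, Cox7b2 having a count in 1. Among the 3 genes for the membrane ring subunit of complex V, whose mature proteins are alike, Atp5g3 (2.49 RPKM) exceeded Atp5g1 in 101 oocytes and Atp5g2 in 103. Reads of Atp5g1 and Atp5g2 may be shared with similar genes, so this order is uncertain. Cox7a2l, an assembly factor of supercomplexes rather than a form of subunit 7A, had 9.93 RPKM.

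The upstream sequences of the genes of the Cox6b pair and of Cox6a1 are shown because the testis form led in this pair and because Cox6a1 carried both motifs searched. Each runs over the 250 bases before the transcription start, 5′ to 3′ on the strand of the gene, from RefSeq on GRCm38.p6, with motif matches in capitals. All lie on the minus strand, Cox6b2 at chr7:4753095-4753344, Cox6b1 at chr7:30626115-30626364 and Cox6a1 at chr5:115348959-115349208.
Cox6b2: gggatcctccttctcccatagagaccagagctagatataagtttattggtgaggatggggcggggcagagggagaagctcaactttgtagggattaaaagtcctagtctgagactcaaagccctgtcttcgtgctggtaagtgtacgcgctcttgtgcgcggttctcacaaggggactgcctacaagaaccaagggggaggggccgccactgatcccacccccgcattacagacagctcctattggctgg
Cox6b1: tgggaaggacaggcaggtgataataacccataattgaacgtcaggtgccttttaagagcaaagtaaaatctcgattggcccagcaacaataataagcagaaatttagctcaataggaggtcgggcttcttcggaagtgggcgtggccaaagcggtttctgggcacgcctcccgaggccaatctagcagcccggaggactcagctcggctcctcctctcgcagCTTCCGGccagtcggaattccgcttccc
Cox6a1: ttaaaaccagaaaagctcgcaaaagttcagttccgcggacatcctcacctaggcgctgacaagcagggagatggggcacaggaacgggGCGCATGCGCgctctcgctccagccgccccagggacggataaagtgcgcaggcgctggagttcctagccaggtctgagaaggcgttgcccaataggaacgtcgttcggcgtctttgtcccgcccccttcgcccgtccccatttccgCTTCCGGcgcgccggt
The motifs were GCGCA directly followed by TGCGC, which reads the same on both strands, bound by nuclear respiratory factor 1 (NRF1), and CCGGAAG, read as CTTCCGG on the other strand, the core bound by ETS factors such as GABP. They do not overlap each other in Cox6a1. The GENCODE annotation starts these genes further upstream than RefSeq, Cox6b1 at 30626151 and Cox6a1 at 115348981. The CTTCCGG matches, which begin 28 (Cox6b1) and 16 bases (Cox6a1) before the RefSeq start, thus lie within the GENCODE genes. Promoters were found for 37 of 48 members (41 promoters). The NRF1 letters stood in 3 of these members (Cox6a1, Atp5g2 and Atp5k), against 0.782% of 32851 promoters of the same length. The ETS letters stood in 9 members, among them Cox6b1, Sdhd, Uqcrh and Uqcr11, against 6.91% of all promoters. Cox6b2 held neither string in this window. A match is a run of letters, and binding was not measured.

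Which subunit genes differed between generations was asked first by complex, with generations compared after the data had been seen. Summed over its 18 genes, complex IV was lower in F3 oocytes than in F1 and F2 oocytes of every group. The 46 F3 oocytes had a median of 96.9 CPM (lowest 13.9, highest 273), and the 111 F1 and F2 oocytes a median of 724 CPM (lowest 216, highest 1811). In 42 of 46 F3 oocytes the sum was below that of every F1 and F2 oocyte, and only F1 HFHS+DHT oocyte 2, at 216 CPM, fell below the highest F3 oocyte. The ratio of medians was 7.47.

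The other complexes overlapped between generations. Complex II had medians of 210 CPM in F3 and 253 CPM in F1 and F2, complex III of 419.7 and 425 CPM, and complex V of 385 and 472 CPM. Within F3 the group median of complex IV was 79.7 CPM for CD+Veh, 150.2 CPM for CD+DHT and 124 CPM for HFHS+Veh, with ranges that overlapped. The library titled F3 CD+Veh oocyte 21 had 1181 CPM for complex III and 2925 CPM for complex V, the highest of all oocytes, through Uqcrc1 (846 CPM), Atp5b (1488 CPM) and Atp5a1 (1256 CPM). Without it the complex V median of F3 CD+Veh was 337 instead of 346 CPM.

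**Figure D2:**
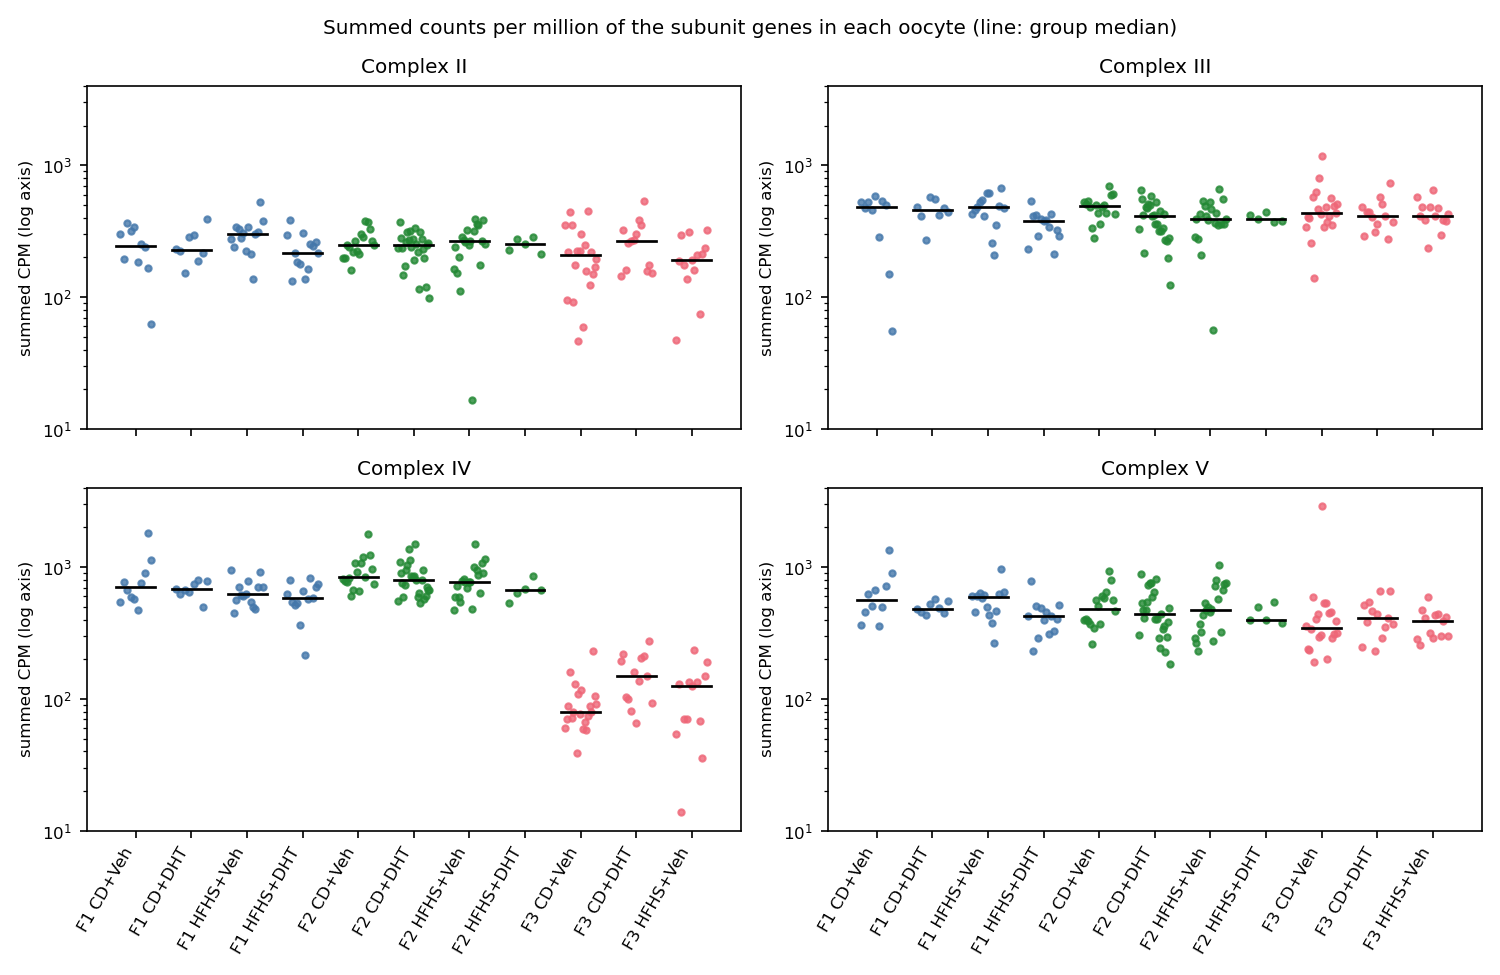
Summed CPM of the genes of each complex (log axis) in every kept oocyte of the 11 groups, coloured by generation, with a line at the group median. Complex IV lies between 13.9 and 273 CPM in F3 and between 216 and 1811 CPM in F1 and F2. The generations overlap in the other complexes, whose sums are weighted toward longer genes.

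Oocytes with contradictory labels had complex IV sums near those of the generation in their title. They are themselves part of the groups by title. Generation and library set cannot be told apart, so these values do not show which label is right. The 5 oocytes titled F2 HFHS+Veh animal 10, which the characteristics call F3, had 475 to 724 CPM for complex IV, and 3 such oocytes of animal 5 had 634 to 1067 CPM. The 5 oocytes titled F3 HFHS+Veh animal 22, which the characteristics call F2, had 13.9 to 131 CPM, and the 8 of animal 26 had 35.6 to 235 CPM.

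Gene by gene, F3 CD+Veh was compared with F2 CD+Veh on counts pooled over oocytes. Of 29 members with a mean of at least 5 CPM, 19 were at least 2-fold lower in F3 and 1 was at least 2-fold higher, where 27.1% and 15.2% of all 7425 genes were. All 10 complex IV members compared were among the 19, with 4 of 6 of complex III, 5 of 10 of complex V and 0 of 3 of complex II. The median log2 difference of the 29 was -2.67, against -0.17 for all genes. The minimum was on the mean of the 2 groups. A member below 5 CPM in 1 group entered only through the other, so its direction was set in advance. This held for Uqcr11 among the lower and for Uqcrc1, the 1 that was higher. With a minimum of 20 CPM, 6 members were past 2-fold. Differences are on the scale of log2(CPM + 0.1), and with 1 sample a group they carry no test.

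Cox8a, a small membrane-spanning subunit of complex IV, ran from 3.51 to 46.8 CPM (median 11.1) over 20 F3 CD+Veh oocytes and from 95.04 to 448 CPM (median 172) over 16 F2 CD+Veh oocytes. Its pooled level was 11.1 CPM (95% Poisson interval 10.23 to 11.9) against 186 CPM (183 to 190). The groups did not overlap. Cox6b2 ran from 0 to 32.1 CPM (median 7.79) in F3 and from 77.0 to 385 CPM (median 171) in F2, again without overlap, and its pooled log2 difference was -4.27. Cox7a2 ran from 1.82 to 26.72 CPM in F3 and from 60.2 to 189 CPM in F2 (-4.12). Cox6c, a regulatory subunit, ran from 0 to 10.7 CPM in F3 and from 42.1 to 161 CPM in F2 (-5.01). The lowest log2 difference of all members was that of Uqcr11, a small complex III subunit, with 0.589 CPM against 37.7 CPM pooled (-5.78). It was -5.02 without F2 CD+Veh oocyte 3.1, in which it reached 100.2 CPM.

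Members with longer transcripts had like levels in both generations. Uqcrc2 had 406 CPM pooled in F3 CD+Veh and 374 CPM in F2 CD+Veh, Sdha 177 and 188 CPM, and Atp5b 249 and 296 CPM. Atp5a1 had 59.4 CPM in both. The pooled F3 values include the library titled CD+Veh oocyte 21, which held 0.521% of the group's counts. It had 1256 CPM of Atp5a1, 1488 CPM of Atp5b and 846 CPM of Uqcrc1. Uqcrc1 was the member that was higher, at 20.6 against 3.98 CPM (2.34), with a median over oocytes of 1.90 against 0 CPM. Its log2 difference was 1.998 to 3.52 when each oocyte was left out in turn.

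The difference ran along transcript length over all genes. The lengths used are those implied by the ratio of the count and RPKM tables, and 26 of 48 members were shorter than 700 nt. Among genes under 500 nt that are not members, the median log2 difference between F3 and F2 CD+Veh was -3.99 (43 genes). It was -2.84 from 500 to under 700 nt (104 genes), -1.81 from there to under 1000 nt (283 genes), -0.63 from there to under 1500 nt (658 genes) and 0.06 from 2000 to under 3000 nt (1681 genes). The members followed the same order, with medians of -4.31, -3.48, -3.23, -0.64 and -0.05 in these classes.

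Synthetic ERCC spike-in RNAs, which are added to the lysate and do not come from the oocyte, showed the same order. As shares of all spike-in counts, the 5 spike-ins of 502 to 520 nt had log2 differences between F3 and F2 of -2.42 to -1.59 (median -1.94). The 11 spike-ins of 1015 to 1122 nt had a median of 0.66. The 17 spike-ins under 600 nt made up a median of 37.9% of spike-in counts in F1, 40.3% in F2 and 12.6% in F3 oocytes. The labels give no library batch, so generation and library set cannot be told apart. How much of the complex IV difference belongs to length was not tested. Cumulus and granulosa markers moved too, with 10 of 19 compared at least 2-fold higher in F3 CD+Veh and 1 lower, and their part was not tested.

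**Figure D3:**
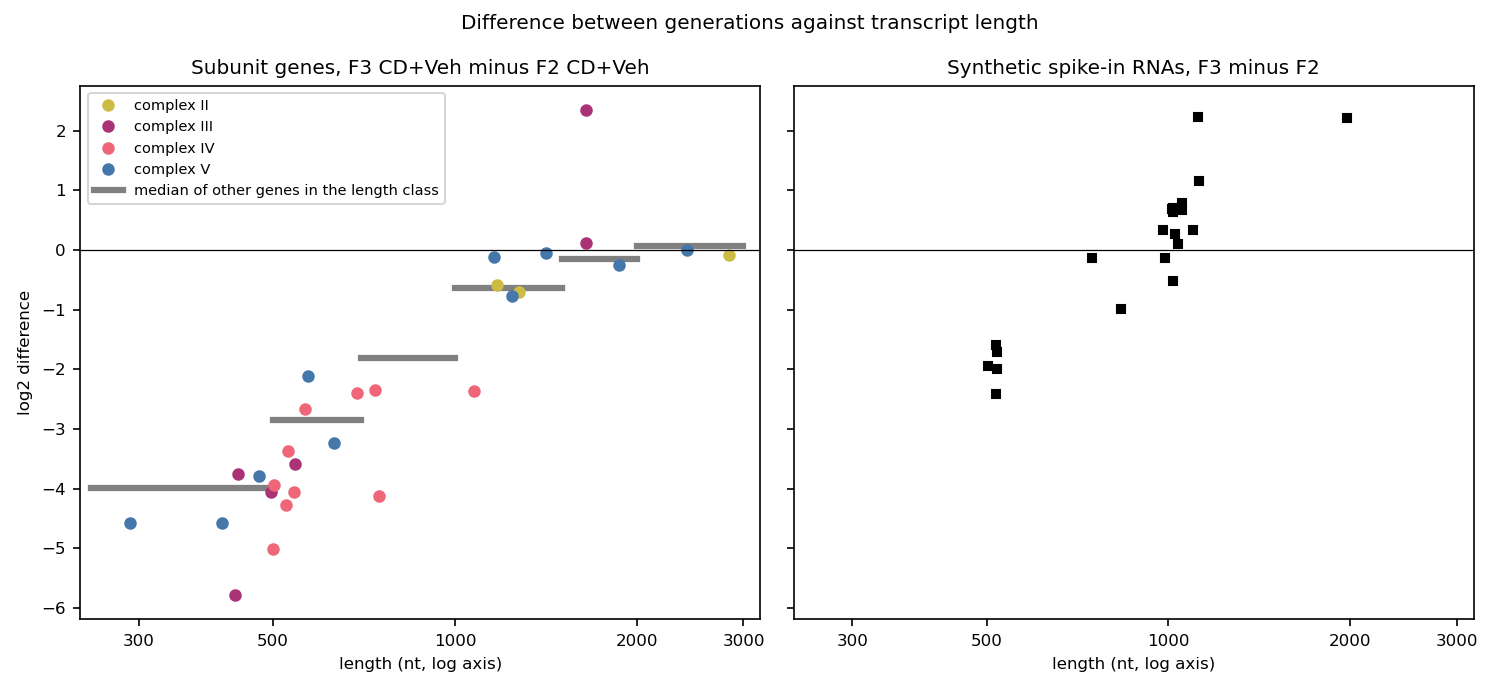
Log2 difference between F3 and F2 (y axis) against transcript length (nt, log axis). Left, 29 members in CD+Veh oocytes coloured by complex, with grey bars at the median of other genes of a length class; right, 21 spike-ins in all oocytes, and in both panels short RNAs lie below 0.

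Beside genes of their own length class, complex IV members were lower still. In CD+Veh, 8 of 10 were below the class median, by a median log2 difference of -1.16, while 3 of 6 members of complex III, 6 of 10 of complex V and 2 of 3 of complex II were below it. In CD+DHT 8 of 10 complex IV members were below it (median -0.82), and in HFHS+Veh 8 of 10 (-1.06). Cox7a2 (749 nt) stood 2.31 below its class median in CD+Veh, with 1.77% of other genes of the class lower. Cox6c (500 nt) stood 2.17 below, with 0.962% lower, and Cox7a2l (1073 nt) stood 1.74 below, with 7.60% lower. Cox5a (688 nt) stood 0.45 above its class median and Cox5b (565 nt) 0.17 above. These 3 genes, which stood furthest below, lie near the short end of their classes. No test of these places was made.

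The same comparison in the other lineages gave like counts. Between F3 and F2 CD+DHT, 16 of 29 members were at least 2-fold lower and 1 higher, where 40.0% of 7248 genes were past 2-fold in either direction, and 9 of 10 complex IV members were among the lower. Between F3 and F2 HFHS+Veh, 16 of 27 members were at least 2-fold lower, against 30.2% of 7113 genes, with 10 of 10 of complex IV, and 1 was higher, against 16.6%. The median log2 differences were -1.92 and -2.09. As above, a member below 5 CPM in 1 generation entered only through the other. Uqcrc1 was the 1 member that was higher in both (4.46 and 2.93).

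Between F2 CD+Veh and F1 CD+Veh, 4 of 30 members were at least 2-fold higher and 0 lower, where 5.29% and 1.34% of 7377 genes were. They were Uqcr11 (37.7 against 8.51 CPM), Atp5j, the coupling factor 6 of the ATP synthase stalk (10.24 against 1.68 CPM), Cox6b1 (29.8 against 13.6 CPM) and Cox6c (88.2 against 41.9 CPM). Without F2 CD+Veh oocyte 3.1 the count was 1, and the log2 differences of Cox6b1 and Cox6c were 0.55 and 0.74. The median of the 30 was 0.44, against 0.15 for all genes. Atp5j was below 5 CPM in F1 CD+Veh and entered only through F2 CD+Veh, so its direction was set by that minimum. The 4 genes named are short, from 433 nt (Uqcr11) to 631 nt (Atp5j). Among genes that are not members the median was 0.54 under 500 nt and 0.31 from 500 to under 700 nt. Of 14 cumulus and granulosa markers compared, 9 were at least 2-fold higher in F2 CD+Veh and 0 lower. The part of length and of these markers was not tested.

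The F2 lineages could be tested over animals, which asks whether exposure of the founding female left a difference in the granddaughters' oocytes. No subunit gene of complexes II to V passed the test in any F2 comparison. Of 48 members, 41 passed the filter on low counts, and 0 of 41 had an adjusted p under 0.05 in edgeR's quasi-likelihood test, as did 0% of 11962 genes. With an unadjusted p under 0.05 there was 1 of 41 members for CD+DHT against CD+Veh (1.84% of all genes), 2 for HFHS+Veh against CD+Veh (0.986%) and 0 for CD+DHT against HFHS+Veh (1.04%). DESeq2 called 2, 2 and 1 genes and limma 0, 0 and 0, none of them members. These comparisons share their groups, so they are not independent.

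Uqcr11 was the member with the smallest p in both comparisons with CD+Veh. By animal it had 14.8, 24.7, 19.11 and 69.2 CPM in CD+Veh. The CD+DHT animals had 6.13, 17.8, 11.98, 14.6 and 12.1 CPM, and the HFHS+Veh animals 7.97, 11.1, 7.11 and 19.41 CPM. The highest CD+Veh value was that of animal 3, and the groups overlapped. The means were 31.9 ± 25.16 (SD, n = 4), 12.5 ± 4.28 (n = 5) and 11.4 ± 5.61 CPM (n = 4). The log2 fold change was -1.09 (SE 0.40, edgeR adjusted p = 0.999938) for CD+DHT and -1.35 (SE 0.43, edgeR adjusted p = 0.999968) for HFHS+Veh. Without CD+Veh animal 3 these were -0.61 and -0.87.

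Cox6c had 59.1, 85.3, 63.5 and 122 CPM in the CD+Veh animals and 47.8, 57.8, 41.9 and 69.3 CPM in the HFHS+Veh animals. Its means were 82.5 ± 28.8 and 54.2 ± 12.03 CPM (SD, n = 4 each), with a log2 fold change of -0.52 (SE 0.22, edgeR adjusted p = 0.999968). The groups overlapped. The members next in order of p in the downward direction had unadjusted p of 0.171 to 0.288 in edgeR for HFHS+Veh and of 0.280 to 0.357 for CD+DHT. For HFHS+Veh they were Atp5k, a subunit of the membrane part of the ATP synthase (-0.45), Cox7a2 (-0.26) and Atp5c1 (-0.28). For CD+DHT they were Atp5e (-0.24), Atp5f1, the stalk subunit b (-0.32), Cox6c (-0.20) and Atp5k (-0.28). In the upward direction Atp5b had 313 ± 118 CPM in CD+DHT (n = 5) and 293 ± 94.8 in CD+Veh (n = 4), a log2 fold change of 0.24, and Sdha (0.12), Cox5a (0.16), Cox5b (0.16) and Uqcr10 (0.13) came next. For HFHS+Veh the upward list was Cox5b (0.21), Atp5b (0.12), Sdha (0.07), Uqcrh (0.08) and Cox4i1 (0.12). Between CD+DHT and HFHS+Veh it was Cox6c (0.32), Atp5c1 (0.32), Cox7a2 (0.24), Cox6a1 (0.37) and Atp5h (0.19), and the downward list was Cox7a2l (-0.30), Cox4i1 (-0.56), Atp5e (-0.12), Cox5b (-0.05) and Atp5a1 (-0.04). None of these passed.

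Over the 41 members the median log2 fold change was -0.07 for CD+DHT, -0.10 for HFHS+Veh and 0.05 between them, against -0.01, 0.02 and -0.02 over all genes. Their standard errors had medians of 0.39, 0.41 and 0.39. The largest were 1.41, 1.48 and 1.40. Simulated counts for CD+DHT against CD+Veh gave back 194 of 200 genes changed 4-fold. These 200 were drawn from genes with a mean above 20 CPM, so members below that level were not covered. Counts were drawn independently with the dispersions fitted to these data, and changes below 4-fold were not simulated. How often smaller changes would be found is therefore not known.

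**Figure D4:**
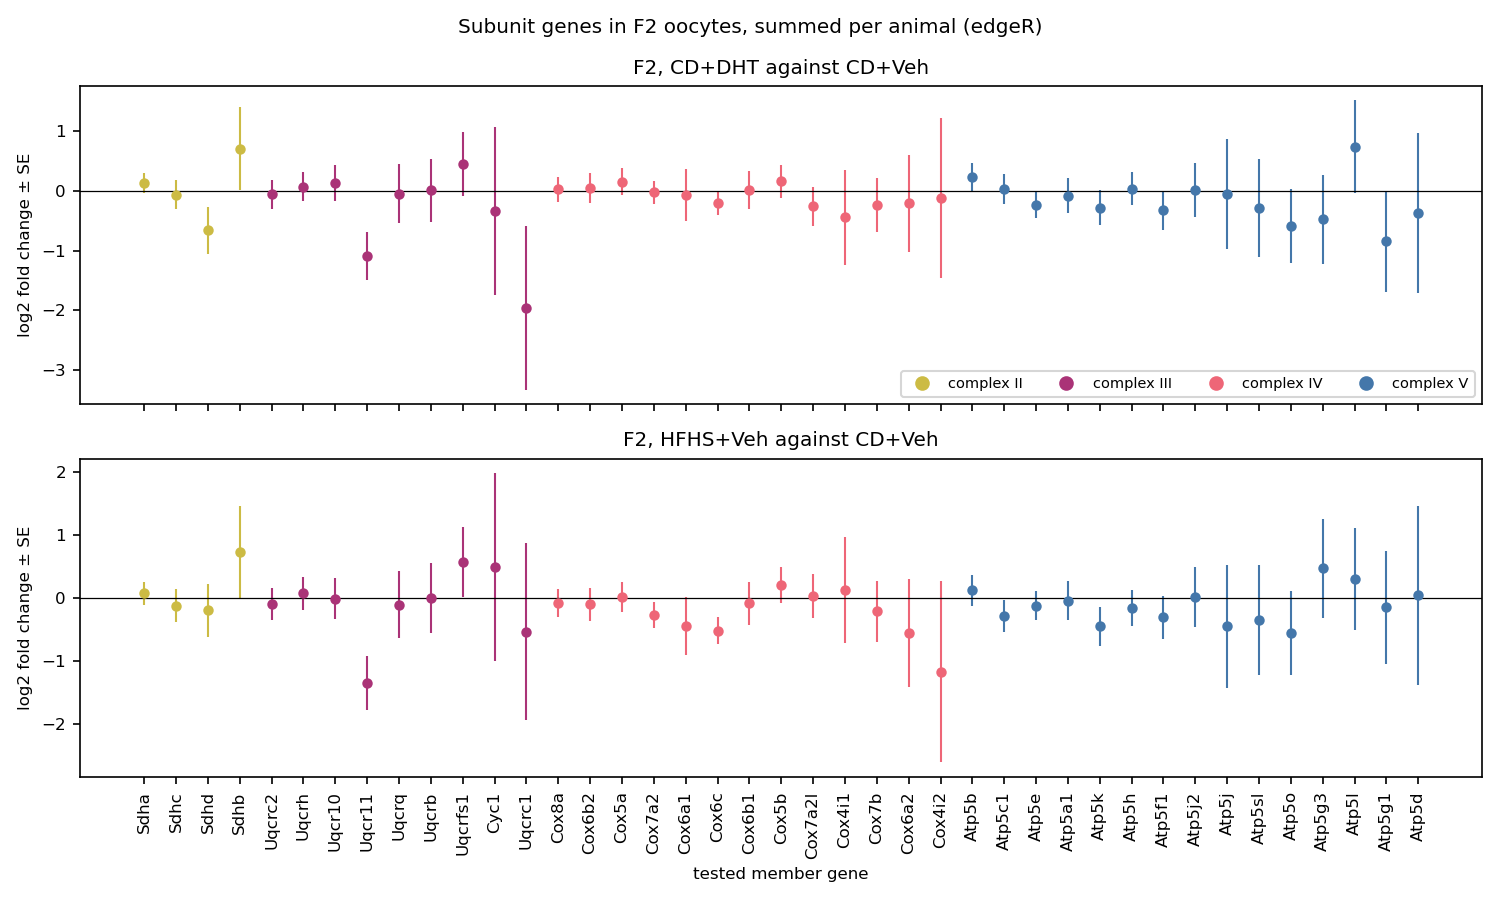
Log2 fold change with its standard error for the 41 tested members (x axis, by complex, highest level first) in F2, CD+DHT against CD+Veh above and HFHS+Veh against CD+Veh below, 4 or 5 animals a group. Points lie on both sides of 0, and 0 of 41 passed the test.

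In F1 the daughters' oocytes of treated females were compared as pooled groups, with no test. Of 31 members compared, 4 were at least 2-fold higher in the diet lineage than in control. Sdhb, the iron-sulfur subunit of complex II, had a median of 7.97 CPM over 14 HFHS+Veh oocytes (0 to 55.8) and of 3.06 CPM over 10 CD+Veh oocytes (0 to 20.7), and pooled levels of 15.1 (95% Poisson interval 13.9 to 16.3) and 3.44 CPM (2.71 to 4.31). Cox4i1, the general form of the largest nuclear-encoded subunit of complex IV, had medians of 17.498 (2.60 to 79.3) and 7.56 CPM (0 to 17.35), and pooled levels of 20.99 and 6.84 CPM. The groups overlapped in both. Atp5j had medians of 12.3 (0 to 70.0) and 1.88 CPM (0 to 18.96), pooled 13.1002 and 1.68 CPM. Atp5o, the oligomycin sensitivity protein of the ATP synthase stalk, had medians of 6.86 (0 to 51.3) and 1.37 CPM (0 to 6.23), pooled 10.09 and 3.12 CPM. The log2 differences were 2.1001, 1.60, 2.89 and 1.66. Of all 7280 genes, 2.65% were at least 2-fold higher, and 0 members but 0.632% of genes were at least 2-fold lower. The median of the 31 members was 0.07. The minimum of 5 CPM was on the mean of the 2 groups. Sdhb, Atp5j and Atp5o were below it in CD+Veh and entered only through HFHS+Veh, so their direction was set in advance. With a minimum of 20 CPM the count was 0.

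The call count rested in part on single oocytes. HFHS+Veh oocyte 1 had 55.8 CPM of Sdhb, 63.9 of Cox4i1, 70.0 of Atp5j and 51.3 of Atp5o, and its cumulus and granulosa markers summed to 12130 CPM, where the group's median was 2559 CPM (lowest 990) and that of CD+Veh 1342 CPM (44.8 to 2936). Of the 38 markers 13 had a median of at least 5 CPM in HFHS+Veh and 9 in CD+Veh. Of 15 of these markers that could be compared, 11 were at least 2-fold higher in HFHS+Veh and 0 lower, and their part in the 4 differences was not tested. Without that oocyte the log2 differences were 1.66, 1.29, 2.11 and 0.94, and 2 members were past 2-fold. Without HFHS+Veh oocyte 11, in which these 4 genes had 0 to 4.77 CPM, 9 were. All 15 oocytes titled F1 HFHS+Veh have a contradictory hormone in their characteristics.

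Androgen on the rich diet was compared with HFHS+Veh, the group in which Sdhb, Cox4i1, Atp5j and Atp5o were named for being high, so that lower values of these genes against it are partly set by that choice. Between HFHS+DHT and HFHS+Veh, 3 of 33 members were at least 2-fold lower, against 2.9% of 7302 genes, and 0 were at least 2-fold higher, against 0.753%. They were Cox4i1 (8.85 against 20.99 CPM, log2 difference -1.24), Atp5j (6.22 against 13.1002 CPM, -1.06) and Atp5o (4.23 against 10.09 CPM, -1.24). Sdhb had 12.6 against 15.1 CPM (-0.26). Atp5o was below the minimum of 5 CPM in HFHS+DHT and entered only through HFHS+Veh. Over oocytes Cox4i1 ran from 0 to 16.6 CPM in HFHS+DHT (median 7.31), and the groups overlapped for all 3. Without HFHS+Veh oocyte 1 no member was past 2-fold (count 0), with log2 differences of -0.92, -0.28 and -0.51, and without oocyte 11 there were 5. In all 27 of 33 members were lower, and the median was -0.29, against -0.04 for all genes. Cumulus and granulosa markers were lower too, with a median sum of 795 CPM in HFHS+DHT against 2559 CPM in HFHS+Veh and pooled sums of 1803 and 3136 CPM. Of the 38 markers 9 against 13 had a median of at least 5 CPM, 8 of 18 compared were at least 2-fold lower and 0 higher, and their part in the difference was not tested.

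For androgen on the control diet few members were past 2-fold, 1 in each direction. Between F1 CD+DHT and CD+Veh, 2 of 28 members were past 2-fold, against 3.83% of 7186 genes. Uqcr11 was higher, with 3.72 to 45.2 CPM over 8 CD+DHT oocytes (median 15.4), 0 to 75.8 CPM over 10 CD+Veh oocytes (median 4.76), and a log2 difference of 1.34. Atp5sl was lower, at 4.18 against 8.88 CPM pooled (-1.07). Atp5sl was below 10 CPM in both groups and is named because the count is small. It was below the minimum of 5 CPM in CD+DHT and entered only through CD+Veh. Without CD+DHT oocyte 2 these differences were 0.72 and -0.72. The median was -0.09.

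Between HFHS+DHT and CD+DHT, 2 of 30 members were past 2-fold, against 4.26% of 7175 genes. Sdhb was higher (12.6 against 3.92 CPM, log2 difference 1.65), with a count in 13 of 13 HFHS+DHT and 4 of 8 CD+DHT oocytes. Uqcr11 was lower (8.79 against 21.8 CPM, -1.30, and -0.67 without CD+DHT oocyte 2). In both vehicle and androgen groups pooled Sdhb was thus higher on the rich diet, and the oocytes of the groups overlapped. Pooled Sdhb was below the minimum of 5 CPM in both control diet groups, so its direction was set by that minimum. The median depth was 743276 gene counts in HFHS+DHT and 434906 in CD+DHT. Of 15 cumulus and granulosa markers compared, 5 were at least 2-fold higher in HFHS+DHT and 0 lower. Their median sum was lower, at 795 against 1486 CPM. The part of depth and of these markers in the Sdhb difference was not tested.

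**Figure D5:**
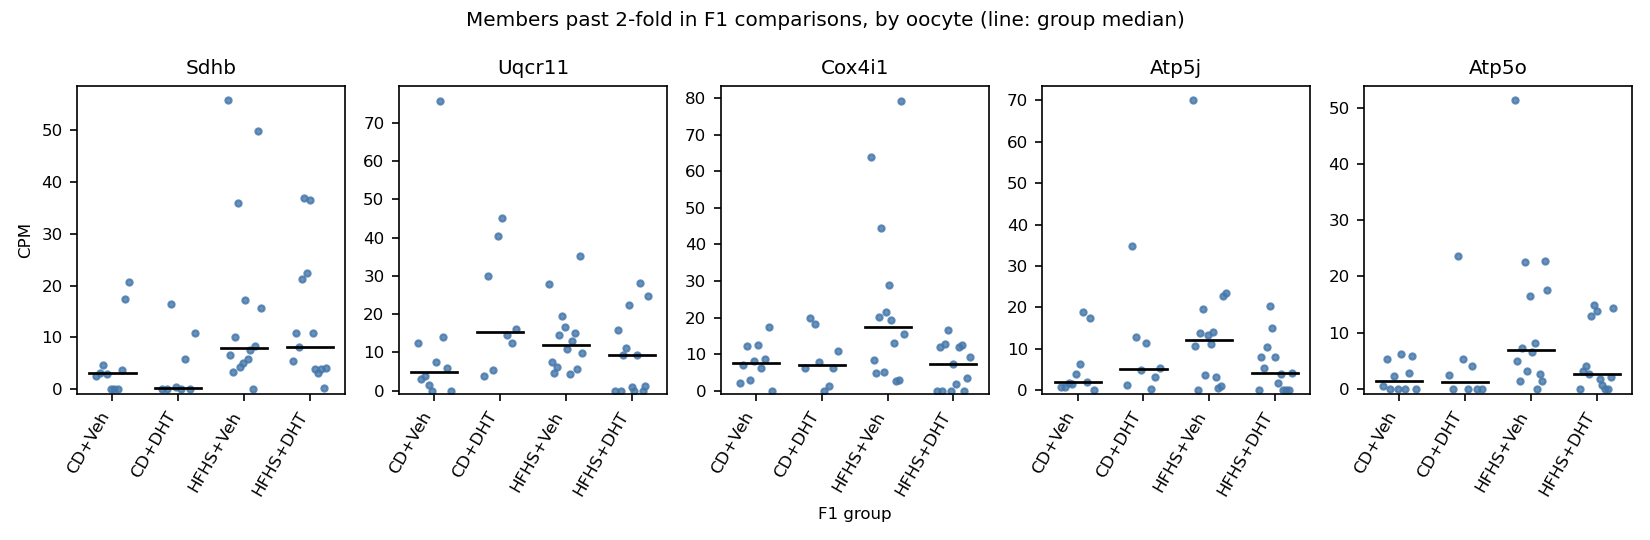
CPM of the genes Sdhb, Uqcr11, Cox4i1, Atp5j and Atp5o in each F1 oocyte (points) of the 4 groups, with a line at the group median. Single oocytes reach 70.0 CPM for Atp5j and 51.3 CPM for Atp5o in HFHS+Veh, and the groups overlap for each gene.

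In F3 no member was past 2-fold within the generation. Between CD+DHT and CD+Veh 0 of 16 members were, where 7.47% of 6957 genes were higher and 6.71% lower, and between HFHS+Veh and CD+Veh 0 of 15, against 14.8% of 6718 genes. Members fell below the minimum of 5 CPM here more often than in F1, so that short genes such as Uqcr11 were not compared. The medians were 0.08 and -0.00. Without the library titled CD+Veh oocyte 21, whose share of the group's counts was 0.521%, the counts were 0 in both. With each of the 33 oocytes left out in turn, the count was 1 in 2 runs of the first comparison and in 12 runs of the second. In the second comparison the lowest log2 difference of a member was -0.94.

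Genes that build or feed these complexes were followed in lists. In F2, 0 members of the lists of assembly factors of complex IV (21 tested), complex III (4), complex II (2) and complex V (4), of cytochrome c (2), of complex I core subunits (7) and of nuclear regulators (8) passed the test in any of the 3 comparisons. Between F3 and F2 CD+Veh, 6 of 11 assembly factors of complex IV were at least 2-fold lower and 1 was higher, where 27.1% and 15.2% of all genes were, with a median log2 difference of -1.01. Of 3 complex I core subunits compared, 0 were past 2-fold. In F1 HFHS+Veh 1 of 4 complex I core subunits was at least 2-fold higher than in CD+Veh, where 2.65% of all genes were, and 0 of 12 assembly factors of complex IV were past 2-fold.

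Reads of some members may be shared with other annotated genes that hold a similar stretch. The search covered both strands and left out neither overlapping neighbour genes nor repeats, so such a stretch need not be a copy of the member. Of the 48, 21 have a stretch of at least 100 nt with at least 95% identity in the transcript of another annotated gene, and 27 have none. Atp5l has 11 such genes, 9 of them pseudogenes, and Cox7c has 4, all pseudogenes. It is not known how such reads were assigned, so the low counts of Cox7c (counted in 42 oocytes) and Atp5l are uncertain. The same holds for Atp5g1 and Atp5g2. Atp5g1 has 20 such genes, of which 2 are pseudogenes and 15 have a count line, with 442447 counts against its own 417. Atp5g2 has 2 such genes and Atp5g3 has 0. The place of Atp5g1 as lowest detected member of complex V, and below Atp5g3, is therefore uncertain. Of the 4 genes that were higher in F1 HFHS+Veh, 3 have such a gene with counts of its own: over all kept oocytes Cox4i1 had 4550 counts and that gene 6348, Atp5j 2735 and that gene 1484, and Atp5o 2010 and that gene 36842, so their values are uncertain too. Sdhb has none. Uqcr11 and Cox6c, named in several comparisons above, each have 2 such genes, both pseudogenes without a count line. Cox8a, Cox6b2, Cox6a1, Cox6b1, Cox7a2, Sdha and Atp5b have no such gene.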

How the data were processed

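Single MII oocytes were sequenced with Smart-seq2. The authors deposited a table of counts per gene symbol and a table of RPKM values for the same oocytes. STAR 2.4.2a, Seurat 2.0 and mm10 are named per the submitters' processing notes, and no source used here names the counting program, the annotation or the strand setting. The count table has 24582 lines, of which 92 are ERCC spike-ins that were left out of library totals. Oocytes with at least 100000 gene counts and 4000 genes were kept, 157 of 202.

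Members and gene lists were chosen with earlier results of these data known, and the comparisons between generations were chosen after seeing the data. In F2, counts were summed per animal and tested with edgeR 4.0.16 (quasi-likelihood, Benjamini-Hochberg adjustment over 11962 genes, threshold 0.05) in R 4.3.3, with DESeq2 1.42.0 and limma 3.58.1 as alternatives. Animals were inferred from titles, and nothing says more of how they were housed or batched. In F1 and F3, and between generations, counts were pooled over oocytes, scaled to CPM, and compared as log2(CPM + 0.1) for genes with a mean of at least 5 CPM, with 2-fold as the limit. The mean was that of the 2 groups compared. A gene below 5 CPM in 1 group therefore entered only if it was higher in the other. Intervals are exact 95% Poisson intervals and cover counting error only. On simulated counts for F2 CD+DHT against CD+Veh, 194 of 200 genes changed 4-fold were recovered among 11403 genes, with 3 false calls, and 200 of 200 changed 16-fold among 11413 genes, with 6 false calls. The changed genes were drawn only from those with a mean above 20 CPM, and changes below 4-fold were not simulated. Similar stretches in transcripts of other genes were searched with BLAST 2.17.0. Genes named were, in F2, the 5 members of smallest p in each direction with a mean of at least 10 CPM; in F1 and F3, members past 2-fold with at least 10 CPM; the 3 highest and the lowest detected member of each complex; and all members of families with tissue forms. Alternatives were other scalings, tests, minimum levels and weights, a stricter oocyte filter, contradictory labels left out, and each replicate left out.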

Additional observations from a re-analysis of the deposited data

Results flagged for a closer look

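Of 78 groups of 4 to 10 samples examined, 4 held a sample far from the others, where chance gives about 1 in 20. Atp5k had 11.97 CPM in F2 CD+Veh animal 13, below 14.096 to 14.19 CPM in the other animals. Cox5a had 229 CPM in F2 CD+DHT animal 7, above 159 to 170.3 CPM in the others. Cox6a1 had 14.7 CPM in F2 HFHS+Veh animal 10, below 82.5 to 91.0 CPM in the others, and the characteristics of all 5 oocytes of animal 10 name F3. Summed complex IV genes had 1811 CPM in F1 CD+Veh oocyte 7, above 470.1 to 1123 CPM in the other oocytes of the group.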

How the results depend on the processing

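Of 160 alternatives, 126 stayed near the reported value, 34 moved it and 0 reversed it. No paired analysis was possible because the animal and oocyte numbers do not pair animals between groups. Counts are of members past 2-fold, and medians are log2 differences. With a minimum of 1 CPM the count was 5 for F1 CD+DHT against CD+Veh, 7 for F1 HFHS+Veh against CD+Veh, 7 for F1 HFHS+DHT against HFHS+Veh, 4 for F1 HFHS+DHT against CD+DHT, 1 for each F3 comparison with CD+Veh, 8 for F2 against F1 CD+Veh and 26 for F3 against F2 HFHS+Veh. With a minimum of 20 CPM, which changes the genes that enter, the count was 0 in each of the 4 F1 comparisons. It was 6 in each of the 3 comparisons of F3 with F2, with medians of -1.49 (CD+Veh), -1.25 (CD+DHT) and -1.53 (HFHS+Veh). With mean RPKM it was 7 for F1 HFHS+Veh against CD+Veh, 5 for F1 HFHS+DHT against HFHS+Veh, 2 for F3 CD+DHT against CD+Veh and 1 for F3 HFHS+Veh against CD+Veh, and the medians of F3 against F2 were -2.24 (CD+Veh) and -1.44 (CD+DHT). With equal weights of oocytes it was 8 for F1 HFHS+Veh against CD+Veh and 2 for each F3 comparison with CD+Veh, and the median of F3 against F2 CD+Veh was -2.12. With oocyte medians it was 0 for F1 HFHS+DHT against CD+DHT and 2 for F3 CD+DHT against CD+Veh, whose median was 0.50. For F3 HFHS+Veh against CD+Veh it was 1 with the stricter oocyte filter and 2 without oocytes of contradictory label, which gave a median of -1.44 for F3 against F2 HFHS+Veh. The cause of these changes was not tested.

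Leaving out 1 oocyte at a time gave counts of 1 to 3 for F1 CD+DHT against CD+Veh, 2 to 9 for F1 HFHS+Veh against CD+Veh, 0 to 5 for F1 HFHS+DHT against HFHS+Veh and 1 to 3 for F1 HFHS+DHT against CD+DHT. It gave 0 to 1 for both F3 comparisons with CD+Veh and 1 to 7 for F2 against F1 CD+Veh. Of F3 against F2 it gave 18 to 21 (CD+Veh), 16 to 18 (CD+DHT) and 16 to 20 (HFHS+Veh). Leaving out 1 animal at a time in F2 gave 0 called members throughout. Members near 5 CPM rest on few counts in the shallowest oocytes.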

Other observations

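Among genes that build the complexes, the heme synthesis factor of complex IV, Cox10, had the highest median of its list over the 157 oocytes, at 99.9 RPKM, followed by Cox14 at 50.6, Cmc1 at 46.3 and Cmc2 at 42.2 RPKM. The ATP synthase assembly factor Tmem70 had 36.4 RPKM and the inhibitor Atpif1 10.25 RPKM. The testis form of cytochrome c, Cyct, had a count in 102 oocytes and a median of 2.03 RPKM, and the somatic form Cycs had a count in 116 oocytes and a median of 0.234 RPKM. Of the nuclear regulators, the GABP subunit Gabpb1 had 30.5 RPKM and Nrf1 10.6 RPKM, while the DNA-binding partner Gabpa, Esrra and Ppargc1a had a median of 0.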
